A study of Homo sapiens with 4 samples.

Results

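The glutathione, thioredoxin and NRF2 antioxidant genes were taken by name from a deposited table of read counts and FPKM (fragments scaled to gene length and library size). A list of 36 symbols was matched to the gene names of the table, which holds 24940 genes. All 36 symbols were found, on 37 rows, because SOD2 is listed under 2 identifiers. Of these rows, 35 reached at least 1 CPM (counts scaled to library size) in at least 1 library, as did 13646 of all genes. The rows that did not are SRXN1 and the second SOD2 entry (ENSG00000285441).

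The cells were MOLM-13, a human acute myeloid leukaemia line with a KMT2A fusion, and the series asked how loss of c-Myc, of Bcl-2 or of both changes their gene expression. They carried a hairpin against c-Myc (sh-c-Myc), against Bcl-2 (sh-Bcl2), against both genes at once (the double knockdown, labelled sh-c-Myc_sh-Bcl2), or a control hairpin (shControl), all delivered by lentivirus. Cells were selected in 0.5 µg/ml puromycin or 600 µg/ml G418, and all groups, shControl included, are labelled as induced with doxycycline. The labels give 72 h of doxycycline for the Western blot and do not say that the sequenced RNA came from that time. Each group holds 1 library, so no difference between groups has a replicate check, and neither the spread between cultures nor that between hairpins could be measured.

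Cells keep hydrogen peroxide and oxidised protein thiols in check through 2 linked systems that draw on NADPH. In one, glutathione is built by glutamate-cysteine ligase and glutathione synthetase, used by peroxidases, transferases and glutaredoxins, and reduced again by glutathione reductase. In the other, thioredoxin reductases reduce thioredoxins, which in turn reduce peroxiredoxins, the enzymes that remove much of the peroxide. NRF2, encoded by NFE2L2, is the transcription factor that induces many of these genes through antioxidant response elements, and KEAP1 marks it for degradation in unstressed cells. NRF2 activity is set largely by protein stability, which RNA counts do not show.

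The libraries held 14421558 counts (sh-c-Myc), 15691129 (sh-Bcl2), 15494138 (double knockdown) and 14825763 (shControl). BCL2 RNA stood at 112 CPM in sh-c-Myc, 38.7 in sh-Bcl2 and 44.5 in the double knockdown, against 119.7 in shControl. MYC RNA stood at 278 CPM in sh-c-Myc, 364 in sh-Bcl2 and 302 in the double knockdown, against 434 in shControl, so it was lower than shControl in all 3 knockdown libraries and by less than 2-fold in each. All 8 markers of the leukaemic blast exceeded 1 CPM in every library (summed 2274, 1425 and 1931 CPM in sh-c-Myc, sh-Bcl2 and the double knockdown, against 1339 in shControl). Monocyte and macrophage markers, of which 11 of 12 are in the table, summed to 538 CPM in sh-c-Myc, 168 in sh-Bcl2 and 625 in the double knockdown, against 75.7 in shControl. Their most abundant gene was LYZ, at 239.6, 91.8 and 346.5 CPM in those knockdowns and 36.1 in shControl. VCAN was at 0 in sh-c-Myc, VCAN and MRC1 in sh-Bcl2, S100A12 and MRC1 in the double knockdown, and VCAN, S100A12 and MRC1 in shControl. Neutrophil, B cell and fibroblast or epithelial lists summed to at most 5.26 CPM, the erythroid list to 23.1 to 25.5 CPM with EPOR almost alone, and the T or NK cell list to 53.0 to 67.8 CPM with NKG7 almost alone. The summed monocyte markers were higher in all 3 knockdown libraries than in shControl, most so with the c-Myc hairpin. LYZ, CSF1R, S100A8, S100A9 and MPEG1 made up most of that sum, and not every marker followed them. At low levels, CD163 had 0.577 CPM in sh-c-Myc against 1.14 in shControl, and FCN1 0.066 in sh-Bcl2 against 0.426 in shControl. CD14 stayed between 0.781 and 1.22 CPM. The part of these markers in the differences below was not tested. In bulk libraries, fewer cells that express a gene and less of its RNA per cell cannot be told apart.

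The sequences upstream of these genes were read because so many of them are textbook NRF2 targets. RefSeq promoter windows, 250 bases before to 50 after a start site on GRCh38.p14, were present for 27 of the 36 symbols (40 windows). The antioxidant response element core, TGACNNNGC on either strand, occurred in 7 of the 40 windows (17.5%), against 13.3% of all 35116 windows in the table. It was found at GSTP1, GCLM, GSTO1, KEAP1, PARK7 and TXNRD1. The E-box CACGTG, a binding motif of c-Myc with MAX that reads the same on both strands, occurred in 4 of 40 (10.0%), against 7.26% of all windows. It was found at PRDX4, PRDX3, GPX1 and GLRX2. The NQO1 window holds neither motif. GENCODE 29 gene spans reach further upstream at both GSTP1 and NQO1, so the GSTP1 window lies partly and the NQO1 window wholly inside the annotated gene. Sequence outside the windows was not searched.

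The core is shown at 5 members, on the strand of the gene and with the core in capitals, because GSTP1 had the largest difference in the libraries and the other members with these letters near their start ranged widely. In sh-c-Myc against shControl the log2 ratios of those shown ran from -0.39 (KEAP1) to -3.09 (GSTP1).
GSTP1, chr11:67583736-67583764, plus strand: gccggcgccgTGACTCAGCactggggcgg
GCLM, chr1:93909446-93909474, minus strand: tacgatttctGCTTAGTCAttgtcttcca
KEAP1, chr19:10502784-10502812, minus strand: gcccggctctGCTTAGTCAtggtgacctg
PARK7, chr1:7961618-7961646, plus strand: cggccggacgTGACGCAGCgtgaggccaa
TXNRD1, chr12:104286920-104286948, plus strand: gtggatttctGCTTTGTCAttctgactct
The cores shown for GCLM, KEAP1 and TXNRD1 are on the opposite strand and so appear reversed and complemented, and those of GSTP1 and PARK7 read forward. They start 66, 34, 31, 83 and 102 bases before the start site at GSTP1, GCLM, KEAP1, PARK7 and TXNRD1. The GSTP1 core starts with TGACTCA, which is also an AP-1 site. KEAP1 also holds a forward core 54 bases before its start, and a second TXNRD1 window holds cores 99 and 8 bases before its own start. Among the peroxiredoxins, E-boxes (in capitals) stood in the windows of PRDX4 and PRDX3, at log2 -1.49 and -0.51 in the same comparison.
PRDX4, chrX:23667400-23667425, plus strand: ggccggcgccCACGTGgcggggcggg
PRDX3, chr10:119178954-119178979, minus strand: gtaggaaaacCACGTGtcacttgccc
The match of a motif describes these letters and says nothing about binding in these cells.

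Levels between genes are compared in deposited FPKM, which is per gene length. The glutathione peroxidase gene GPX1, which removes hydrogen peroxide with glutathione, had the highest FPKM of the set in every library, at 231.9 in sh-c-Myc, 257.9 in sh-Bcl2 and 273.4 in the double knockdown, against 236.6 in shControl. In shControl it was followed by PRDX1 (189.7), TXN (186.4), GPX4 (107.1), PRDX3 (105.8) and PRDX6 (87.8). In sh-c-Myc the order after GPX1 was TXN (102.6), GPX4 (100.6), PRDX3 (84.8) and PRDX1 (83.8), so that PRDX1 came after 4 other members there and after 1 in shControl. In shControl PRDX1 and TXN, and likewise GPX4 and PRDX3, lay too close together to be ordered without replicates. In sh-c-Myc the same held for TXN and GPX4, and for PRDX3 and PRDX1. The places given for PRDX1 are therefore approximate. At the low end GSTZ1 had 0.663, 0.293 and 0.602 FPKM in sh-c-Myc, sh-Bcl2 and the double knockdown, against 0.239 in shControl. SRXN1, which encodes sulfiredoxin, the enzyme that repairs overoxidised peroxiredoxins, had 4 counts in each knockdown library and 6 in shControl, too few for a comparison. Exons of AL121758.1 on the same strand share 84.95% of its exonic bases, and how reads from shared exons were counted is not stated. AL121758.1 itself had 0, 1 and 0 counts in sh-c-Myc, sh-Bcl2 and the double knockdown, against 2 in shControl. The second SOD2 row held 0 counts in sh-c-Myc, 3 in sh-Bcl2, 0 in the double knockdown and 2 in shControl, and gets no fold change. Other genes share 90.5% of its exonic bases, 69.74% on the same strand.

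**Figure D1:**
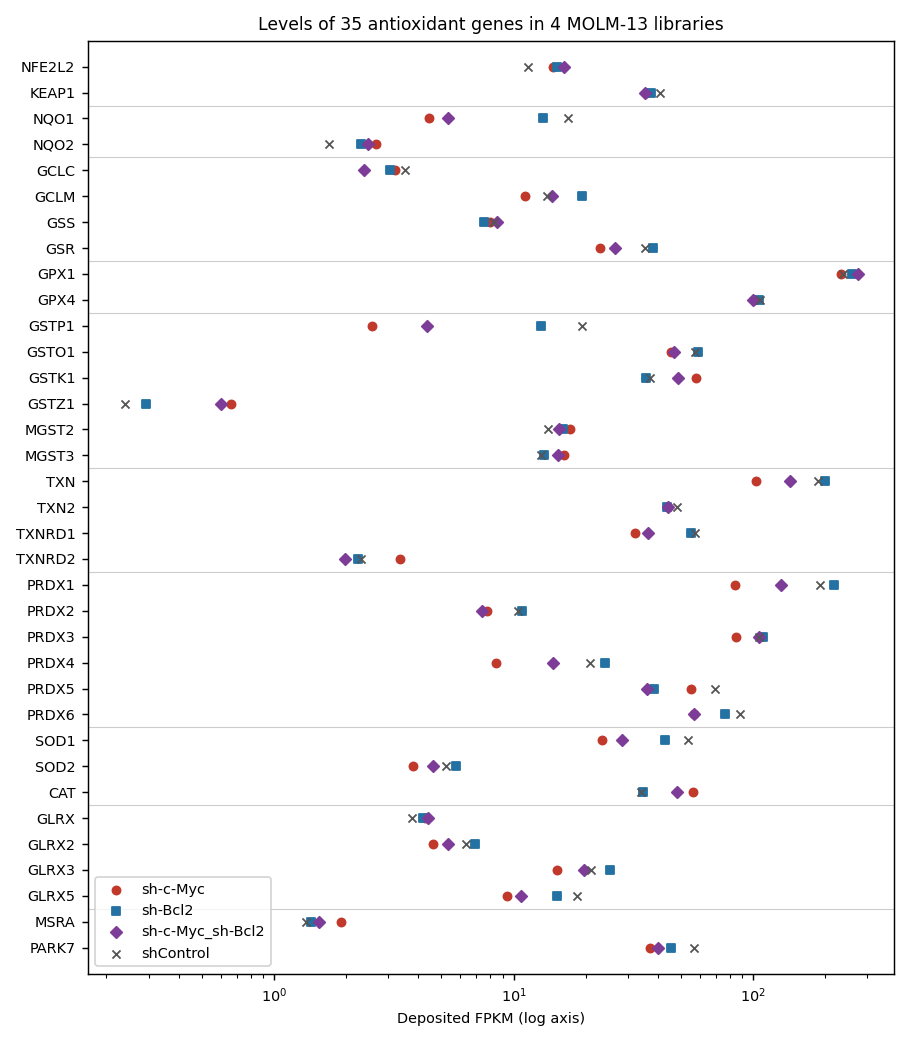
Deposited FPKM (log axis) of the 35 antioxidant genes that passed the filter, by role from NRF2 at the top to DJ-1 (PARK7) at the bottom. Each point is 1 library, and there are no error bars because each group has 1 library. GSTP1, NQO1, PRDX4, SOD1 and GLRX5 are among the members with both c-Myc hairpin libraries to the left of both others. GSTZ1, CAT and GSTK1 are among those with both to the right.

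Summed over all members, the set took 0.320% of counts in sh-c-Myc, 0.401% in sh-Bcl2 and 0.348% in the double knockdown, against 0.397% in shControl. The peroxiredoxins together had 297 FPKM in sh-c-Myc, 478 in sh-Bcl2 and 351 in the double knockdown, against 484 in shControl. The 4 thioredoxin and thioredoxin reductase genes had 182, 300.5 and 225 FPKM in sh-c-Myc, sh-Bcl2 and the double knockdown, against 294 in shControl. Both sums were therefore lower wherever the c-Myc hairpin was present and close to shControl with the Bcl-2 hairpin alone. The sum of the glutathione peroxidases GPX1 and GPX4 varied less, with 332 FPKM in sh-c-Myc, 363 in sh-Bcl2 and 373 in the double knockdown, against 344 in shControl. The glutathione transferases kept a sum of 140.1, 137 and 131 FPKM in the same order, against 140.5 in shControl. In sh-c-Myc against shControl GSTP1 (2.58 against 19.3 FPKM) and GSTO1 (45.6 against 57.1) were lower. GSTK1 (57.9 against 37.0), MGST2 (17.15 against 13.9) and MGST3 (16.2 against 13.0) were higher there. GSTZ1, though called higher, added little, at 0.663 against 0.239 FPKM. FPKM is scaled to total counts, and on that scale the median log2 ratio of all genes in sh-c-Myc against shControl was 0.16.

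**Figure D2:**
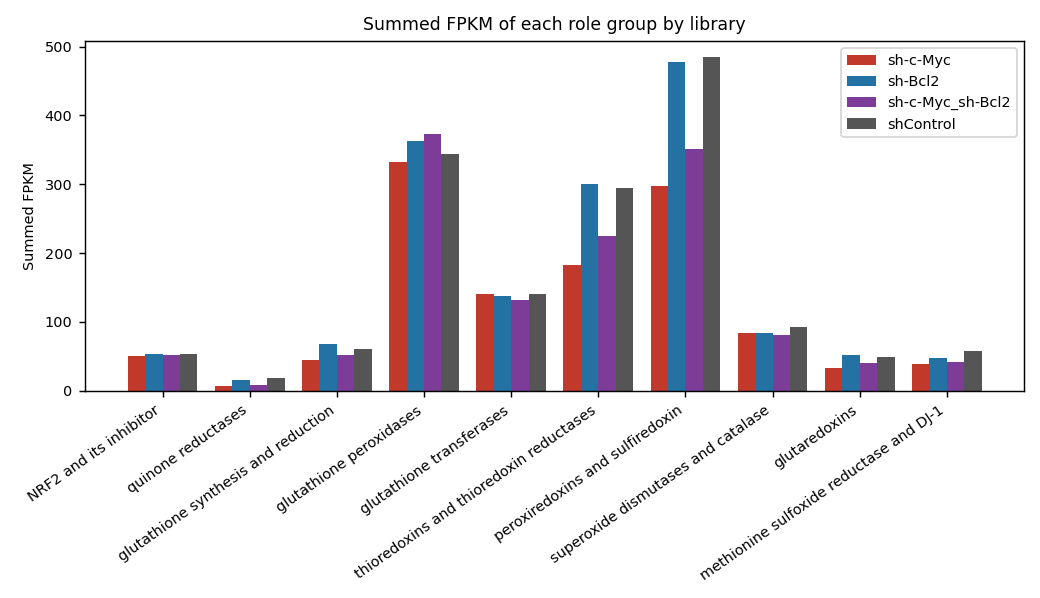
Summed deposited FPKM of the members of each role, 1 bar per library, with the axis from 0. The thioredoxin group and the peroxiredoxins have lower bars in both libraries with the c-Myc hairpin (182 and 225 FPKM for the thioredoxin group, 297 and 351.5 FPKM for the peroxiredoxins) than in sh-Bcl2 and shControl, and the glutathione peroxidases do not. Bars of the quinone reductases, glutathione synthesis and reduction, the glutaredoxins, and MSRA with PARK7 are also lower in both. Those of NFE2L2 with KEAP1 are lower by little.

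For changes between libraries, counts were scaled with TMM factors. Genes were called higher or lower where the ratio was at least 2-fold, its 95% interval excluded 1 and at least 1 library held 1 CPM. Intervals in brackets are 95% intervals for counting error only, and TMM-scaled CPM are given below. In sh-c-Myc against shControl, 8 of the 35 members were lower (22.86%), where 9.86% of all genes were called lower. These were GSTP1, NQO1, PRDX4, SOD1, PRDX1, GLRX5, TXN and TXNRD1. GSTZ1 was the 1 member called higher (2.857%), where 12.5% of all genes were. The median log2 ratio of the members was -0.51, against -0.02 over all genes, and 26 of the 35 were below 0, where 51.34% of all genes were. In sh-Bcl2 against shControl 0 members were called in either direction, where 2.45% of all genes were higher and 2.16% lower, and the median of the members was 0.03, with that over all genes within 0.01 of 0. In the double knockdown against shControl, 4 members were lower (11.43%; background 5.99%) and 1 was higher (background 7.1%), and the median was -0.30 against -0.01. These 3 comparisons share the shControl library, so they are not independent of each other. With total counts in place of TMM, the median of all genes in sh-c-Myc moved by 0.19 and that of the members was -0.32.

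**Figure D3:**
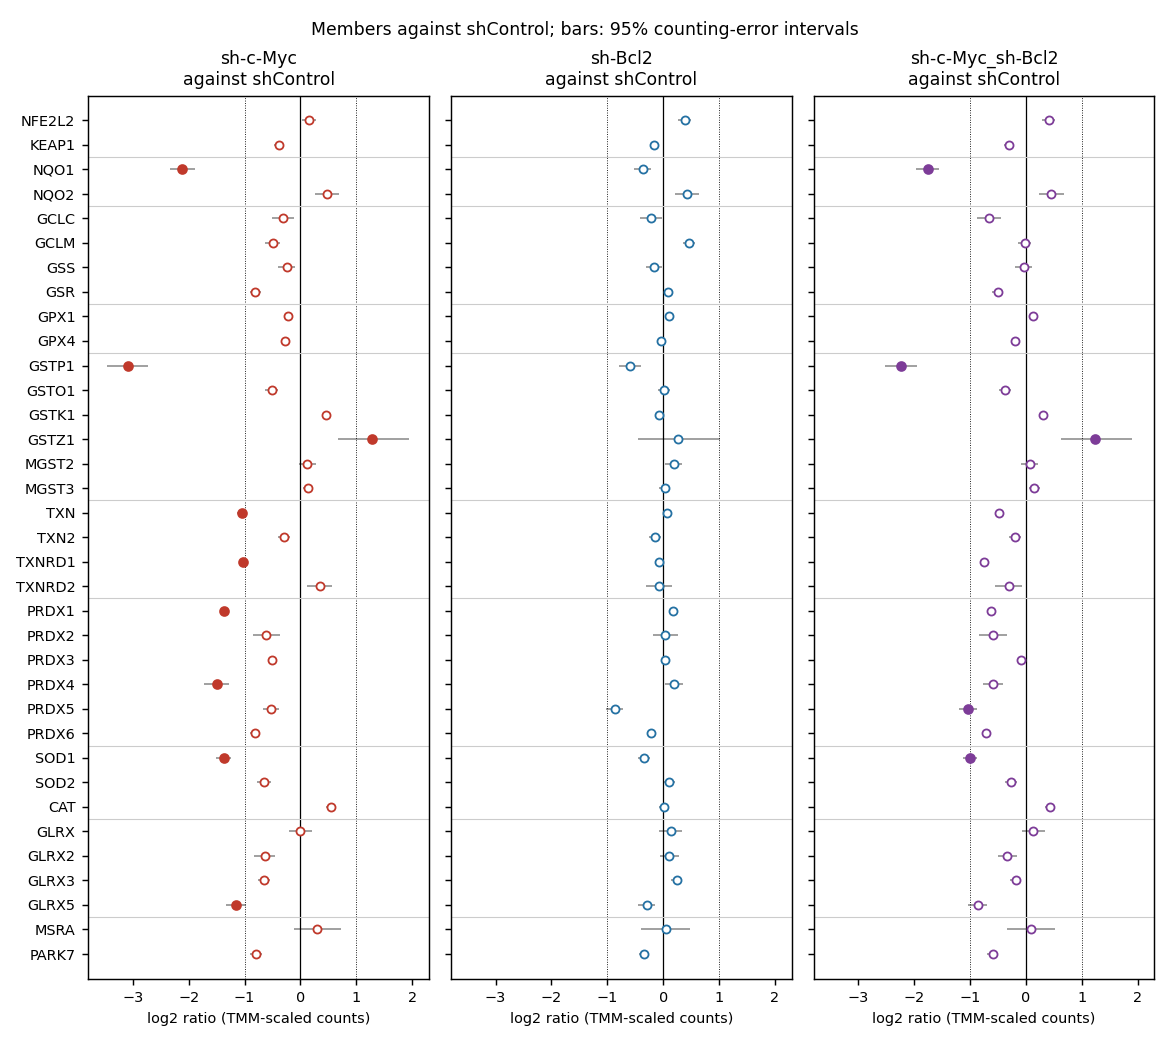
Log2 ratio of TMM-scaled counts to shControl for the 35 members in sh-c-Myc (left), sh-Bcl2 (middle) and the double knockdown (right), with 95% intervals for counting error. Filled points were called (at least 2-fold, dotted lines), 9 on the left, 0 in the middle and 5 on the right.

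NFE2L2 itself, the gene of NRF2, was not called in any of the 5 comparisons made. Its level was 80.75 CPM in sh-c-Myc, 94.6 in sh-Bcl2 and 96.6 in the double knockdown, against 72.6 in shControl. It was thus highest in the 2 libraries with the Bcl-2 hairpin and lowest in shControl, with log2 ratios to shControl of 0.15 [0.03 to 0.27], 0.38 [0.26 to 0.50] and 0.41. KEAP1, the adaptor that targets NRF2 for ubiquitination, stood at 124 CPM in sh-c-Myc, 146 in sh-Bcl2 and 132 in the double knockdown, against 162.5 in shControl. All 3 knockdown libraries lay below shControl for KEAP1, at log2 -0.39, -0.16 and -0.30, and none was 2-fold apart. Exons of other genes overlap 20.91% of the exonic bases of NFE2L2 in GENCODE 29, and whether the counting used strand is not stated in the sources used here.

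NQO1 (ENSG00000181019, chromosome 16, 69706996 to 69726951 on GRCh38) encodes the quinone reductase that is often used as a readout of NRF2. It had 13.4 CPM in sh-c-Myc, 44.9 in sh-Bcl2 and 17.2 in the double knockdown, against 58.1 in shControl. Both libraries with the c-Myc hairpin lay far below the other 2, which differed less between themselves. NQO1 was 4.32-fold lower in sh-c-Myc [3.72 to 5.07] and 3.37-fold lower in the double knockdown [2.94 to 3.89] than in shControl, and its log2 ratio in sh-Bcl2 was -0.37 [-0.52 to -0.22]. The double knockdown was also 2.61-fold lower than sh-Bcl2 [2.26 to 3.02]. Of its exonic bases 17.67% overlap an exon on the opposite strand. NQO2, a related reductase that uses other cofactors, was not called and had 28.6, 27.8 and 28.3 CPM in sh-c-Myc, sh-Bcl2 and the double knockdown, against 20.65 in shControl.

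Glutathione is made by the 2-subunit glutamate-cysteine ligase, whose catalytic subunit is encoded by GCLC and whose modifier subunit by GCLM, and then by the synthetase GSS. None of these, nor the reductase GSR, was called in any of the 5 comparisons made, among which sh-c-Myc was not set directly against sh-Bcl2. GCLM had 55.8 CPM in sh-c-Myc, 109 in sh-Bcl2 and 77.8 in the double knockdown, against 78.9 in shControl, so the highest and lowest values were those of the single knockdowns. GCLC had 25.65, 27.4 and 20.3 CPM in those knockdowns, against 31.9 in shControl. The subunits differed in how they stood with the Bcl-2 hairpin. GCLM was higher in sh-Bcl2 than in shControl (log2 0.46 [0.35 to 0.57]) and higher in the double knockdown than in sh-c-Myc (0.48 [0.35 to 0.61]), while GCLC lay at -0.22 [-0.42 to -0.02] and -0.34 [-0.56 to -0.12]. The difference between the subunits was not tested. GSR, which regenerates reduced glutathione, had 79.85 CPM in sh-c-Myc, 148 in sh-Bcl2 and 98.5 in the double knockdown, against 139.6 in shControl. GSS ranged from 45.5 to 53.9 CPM over the 4 libraries.

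The glutathione peroxidases were not called in any of those comparisons. GPX1 had 307 CPM in sh-c-Myc, 382 in sh-Bcl2 and 387.5 in the double knockdown, against 356 in shControl. GPX4, the selenoenzyme that reduces lipid hydroperoxides and restrains ferroptosis, ranged from 188 CPM in sh-c-Myc to 228 in shControl. Log2 ratios of both genes to shControl lay between -0.28 and 0.12 in the 3 knockdown libraries. Of the 4 selenoprotein genes in the set, GPX1, GPX4, TXNRD1 and TXNRD2, only TXNRD1 was called in sh-c-Myc.

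Among the glutathione transferases, GSTP1 (ENSG00000084207, chromosome 11, 67583595 to 67586656), the cytosolic pi-class enzyme, had the largest fold difference of all members in sh-c-Myc. Counts were 71 in sh-c-Myc, 390 in sh-Bcl2 and 129 in the double knockdown, against 548 in shControl. Scaled, these are 4.55, 25.8 and 8.25 CPM, against 38.9 CPM in shControl. Every knockdown library was below shControl, and the 2 with the c-Myc hairpin were lowest. GSTP1 was 8.49-fold lower in sh-c-Myc [6.66 to 11.1] and 4.70-fold lower in the double knockdown [3.88 to 5.75], with a log2 ratio for sh-Bcl2 of -0.59 [-0.79 to -0.40]. It was 3.11-fold lower in the double knockdown than in sh-Bcl2 [2.55 to 3.84].

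GSTZ1 (ENSG00000100577, chromosome 14, 77320884 to 77331597), the zeta-class enzyme of tyrosine breakdown, went the other way. Its counts were 81 in sh-c-Myc, 39 in sh-Bcl2 and 79 in the double knockdown, against 30 in shControl, or 5.195, 2.58, 5.05 and 2.13 CPM in that order. The 2 libraries with the c-Myc hairpin were the high ones, 2.415-fold in sh-c-Myc [1.59 to 3.84] and 2.35-fold in the double knockdown [1.54 to 3.74] above shControl. With log2(FPKM + 1), which understates low genes, the ratios were 0.42 and 0.37 and neither was called. GSTO1, the omega-class enzyme and the transferase with the highest FPKM in shControl, had 71.25, 103 and 78.4 CPM in sh-c-Myc, sh-Bcl2 and the double knockdown, against 102 in shControl. GSTK1, the kappa-class enzyme of mitochondria and peroxisomes, lay at log2 0.46 [0.39 to 0.54] in sh-c-Myc against shControl, with 0.31 for the double knockdown. The membrane-bound MGST2 and MGST3 stayed between log2 0.03 and 0.19 of shControl in all 3 knockdown libraries.

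The cytosolic thioredoxin pair and its mitochondrial counterpart stood differently in sh-c-Myc, and the difference between the pairs was not tested. TXN (ENSG00000136810, chromosome 9, 110243811 to 110256640), cytosolic thioredoxin, had 108 CPM in sh-c-Myc, 236 in sh-Bcl2 and 161 in the double knockdown, against 224 in shControl. TXNRD1 (ENSG00000198431, chromosome 12, 104215779 to 104350305), the selenoenzyme that reduces it, had 199, 382 and 241 CPM in the same knockdowns, against 404.5 in shControl. For both genes sh-c-Myc was lowest, the double knockdown lay between, and sh-Bcl2 was close to shControl. TXN was 2.07-fold lower in sh-c-Myc [1.95 to 2.19] and TXNRD1 2.03-fold lower [1.95 to 2.13], and neither call was made with total counts (log2 -0.86 and -0.84) or with log2(FPKM + 1) ratios (-0.85 and -0.82). TXNRD1 also missed 2-fold with the GC and length trend removed (-0.99). In the double knockdown their log2 ratios to shControl were -0.48 and -0.75. The mitochondrial genes TXN2 and TXNRD2 lay at log2 -0.30 [-0.41 to -0.19] and 0.34 [0.12 to 0.57] in sh-c-Myc. Summed FPKM of TXN and TXNRD1 was 135 in sh-c-Myc, 254 in sh-Bcl2 and 179 in the double knockdown, against 244 in shControl, and that of TXN2 and TXNRD2 was 47.7, 46.1 and 46.2, against 50.2 in shControl. The mitochondrial sum was mostly TXN2, at 44.3 FPKM in sh-c-Myc, so it says little about TXNRD2. TXNRD2 had 25.9, 19.4 and 16.5 CPM in those knockdowns and 20.4 in shControl, so its highest level was in sh-c-Myc and its lowest in the double knockdown. GENCODE 29 names 7 pseudogenes of TXN, and how reads that match them were counted is not stated in those sources.

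The peroxiredoxins held the largest share of the set's FPKM in shControl, and PRDX1 and PRDX4 were called lower in sh-c-Myc. PRDX1 (ENSG00000117450, chromosome 1, 45511036 to 45523047), the abundant cytosolic form, had 118 CPM in sh-c-Myc, 344 in sh-Bcl2 and 197.5 in the double knockdown, against 304 in shControl. PRDX4 (ENSG00000123131, chromosome X, 23664262 to 23686399), the form of the endoplasmic reticulum, had 14.8, 47.7 and 27.7 CPM in those knockdowns, against 41.8 in shControl. In both genes sh-Bcl2 was the highest library and the double knockdown lay between sh-c-Myc and shControl. PRDX1 was 2.58-fold lower in sh-c-Myc [2.44 to 2.72] and PRDX4 2.82-fold lower [2.42 to 3.30], while in the double knockdown both were closer to shControl (log2 -0.62 [-0.69 to -0.55] and -0.59 [-0.78 to -0.41]). An exon of MMACHC on the opposite strand covers part of PRDX1 (24.9% of its exonic bases). MMACHC itself had 9.75, 19.1 and 14.7 CPM in the knockdowns in that order and 20.9 in shControl. The effect of the overlap on the PRDX1 counts was not tested.

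PRDX5 (ENSG00000126432, chromosome 11, 64318088 to 64321811), which is found in mitochondria, peroxisomes and the cytosol, was ordered differently. Its level was 45.5 CPM in sh-c-Myc, 35.7 in sh-Bcl2 and 31.9 in the double knockdown, against 65.3 in shControl. The 2 libraries with the Bcl-2 hairpin were lowest. PRDX5 was called only in the double knockdown, 2.045-fold lower [1.83 to 2.29]. That call was lost with total counts (log2 -0.95), with the GC and length trend removed (-0.96) and with log2(FPKM + 1) ratios (-0.93). Its log2 ratio in sh-Bcl2, -0.87 [-1.03 to -0.72], was the lowest of any member there. The mitochondrial PRDX3 had 268, 389 and 357 CPM in sh-c-Myc, sh-Bcl2 and the double knockdown, against 380.5 in shControl. PRDX2, another cytosolic form, and PRDX6, which uses a single cysteine and glutathione, lay at log2 -0.61 and -0.81 in sh-c-Myc. As a share of peroxiredoxin FPKM, PRDX1 made up 28.2% in sh-c-Myc, 45.65% in sh-Bcl2 and 37.3% in the double knockdown, against 39.2% in shControl. The share of PRDX3 was 28.6%, 23.0% and 29.99% in those knockdowns, against 21.9% in shControl, and that of PRDX5 was 18.6%, 8.06% and 10.3%, against 14.35% in shControl.

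SOD1 (ENSG00000142168, chromosome 21, 31659622 to 31668931), the cytosolic copper and zinc superoxide dismutase, had 43.6 CPM in sh-c-Myc, 89.6 in sh-Bcl2 and 56.55 in the double knockdown, against 113 in shControl. All 3 knockdown libraries were below shControl. SOD1 was 2.59-fold lower in sh-c-Myc [2.37 to 2.84] and lower in the double knockdown at the very edge of a 2-fold call [1.84 to 2.17], which was lost with DESeq2 size factors (log2 -0.99), total counts (-0.91), the GC and length trend removed (-0.94) and log2(FPKM + 1) ratios (-0.89). SOD2, the manganese enzyme of mitochondria, was not called and had 57.9, 98.1 and 75.5 CPM in those knockdowns, against 90.85 in shControl. Catalase, which breaks down hydrogen peroxide in peroxisomes, was higher with the c-Myc hairpin, at 186.5 CPM in sh-c-Myc, 129 in sh-Bcl2 and 172 in the double knockdown, against 128 in shControl (log2 0.54 [0.46 to 0.63] in sh-c-Myc).

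Of the 4 glutaredoxins, which use glutathione to reduce protein thiols or carry iron-sulphur clusters, GLRX5 was called. GLRX5 (ENSG00000182512, chromosome 14, 95533503 to 95544724), the mitochondrial iron-sulphur cluster carrier, had 24.6 CPM in sh-c-Myc, 44.9 in sh-Bcl2 and 30.2 in the double knockdown, against 55.0 in shControl. It was 2.23-fold lower in sh-c-Myc [1.97 to 2.53]. The call was lost with total counts (log2 -0.97) and with log2(FPKM + 1) ratios (-0.90). GLRX3, a cytosolic glutaredoxin of iron handling, had 72.8, 135 and 100.5 CPM in those knockdowns, against 114 in shControl, and GLRX2, a mitochondrial form, lay at log2 -0.64 in sh-c-Myc. GLRX, the cytosolic form, differed by less than 0.01 on the log2 scale between sh-c-Myc and shControl. PARK7, which encodes the redox-sensitive protein DJ-1, had 1283 counts in sh-c-Myc, 1712 in sh-Bcl2 and 1485 in the double knockdown, against 2017 in shControl, which scale to between 82.3 CPM in sh-c-Myc and 143 CPM in shControl with all knockdown libraries below shControl. MSRA, which repairs oxidised methionine, ranged from 5.96 to 7.31 CPM.

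The layout also allows a fit over all 4 libraries, with 1 term for each hairpin (edgeR quasi-likelihood, Benjamini-Hochberg adjustment over 12855 genes). Its single residual degree of freedom mixes any non-additive change with the spread between libraries. For the c-Myc hairpin 18 of 35 members passed an adjusted p of 0.05, 16 lower (45.71%; 14.2% of all genes tested) and 2 higher (9.24% of all genes). The 16 were GSTP1, NQO1, PRDX4, PRDX1, SOD1, GLRX5, TXNRD1, TXN, GSR, PRDX6, PRDX2, GLRX2, GLRX3, PARK7, SOD2 and GCLM, and each was lower in both libraries with the hairpin than in both without it. For GCLM the double knockdown and shControl hardly differed, at 77.8 and 78.9 CPM (log2 -0.02 [-0.14 to 0.10]). GSTP1 fell 5.06-fold (adjusted p = 0.000781, edgeR) and NQO1 3.35-fold (adjusted p = 0.000559, edgeR). PRDX4 fell 2.19-fold and PRDX1 2.12-fold (adjusted p = 0.00322 and 0.00197, edgeR). The 2 that rose were GSTZ1, 2.18-fold (adjusted p = 0.0479, edgeR), and CAT, 1.39-fold (adjusted p = 0.0406, edgeR), and both were higher in both libraries with the hairpin. The remaining 17, among them NFE2L2, KEAP1, GPX1, GPX4, GCLC and PRDX3, did not pass. With DESeq2 in place of edgeR 10 passed, all lower. The fit pools the spread of all genes, and the same 4 libraries gave the ratios above, so it is no separate evidence.

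For the Bcl-2 hairpin 0 of 35 members passed in that fit (edgeR), where 0.0156% of all genes passed in each direction, 2 higher and 2 lower. At an unadjusted p under 0.05 (edgeR) there were 5, namely PRDX5, GCLM, PRDX1, PRDX4 and GLRX3. The share of all genes under that unadjusted threshold is not given, so the 5 have no background beside them. At the adjusted threshold DESeq2 and limma-voom also passed 0. PRDX5 had the smallest unadjusted p (0.00181, adjusted p = 0.507, edgeR), with a fitted 1.62-fold lower level with the hairpin.

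The Bcl-2 hairpin was then followed in both backgrounds, in the double knockdown set against sh-c-Myc and in sh-Bcl2 against shControl. In the double knockdown set against sh-c-Myc 0 members were called (background 1.66% higher and 4.7% lower), and the median was 0.20 against 0.03 over all genes. Of the 35 members 26 lay above 0 and 9 below, where 47.06% of all genes lay below 0. With total counts 21 lay above 0 and the median was 0.10. The highest were PRDX4 (log2 0.90 [0.67 to 1.14]), GSTP1 (0.85 [0.43 to 1.30]) and PRDX1 (0.74 [0.66 to 0.83]), and TXN lay at 0.57 [0.48 to 0.66]. The lowest were TXNRD2 (-0.65 [-0.88 to -0.42]) and PRDX5 (-0.51 [-0.68 to -0.35]). The sh-c-Myc library also enters the comparison of sh-c-Myc with shControl, so these values and those are not independent. In sh-Bcl2 against shControl, where the c-Myc hairpin was absent, the members ranged from -0.87 (PRDX5) to 0.46 (GCLM), with PRDX4 at 0.19, GSTP1 at -0.59, PRDX1 at 0.18 and TXN at 0.08. PRDX5 thus lay below 0 in both backgrounds, and GCLM and NFE2L2 (0.26 with and 0.38 without the c-Myc hairpin) lay above 0 in both.

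**Figure D4:**
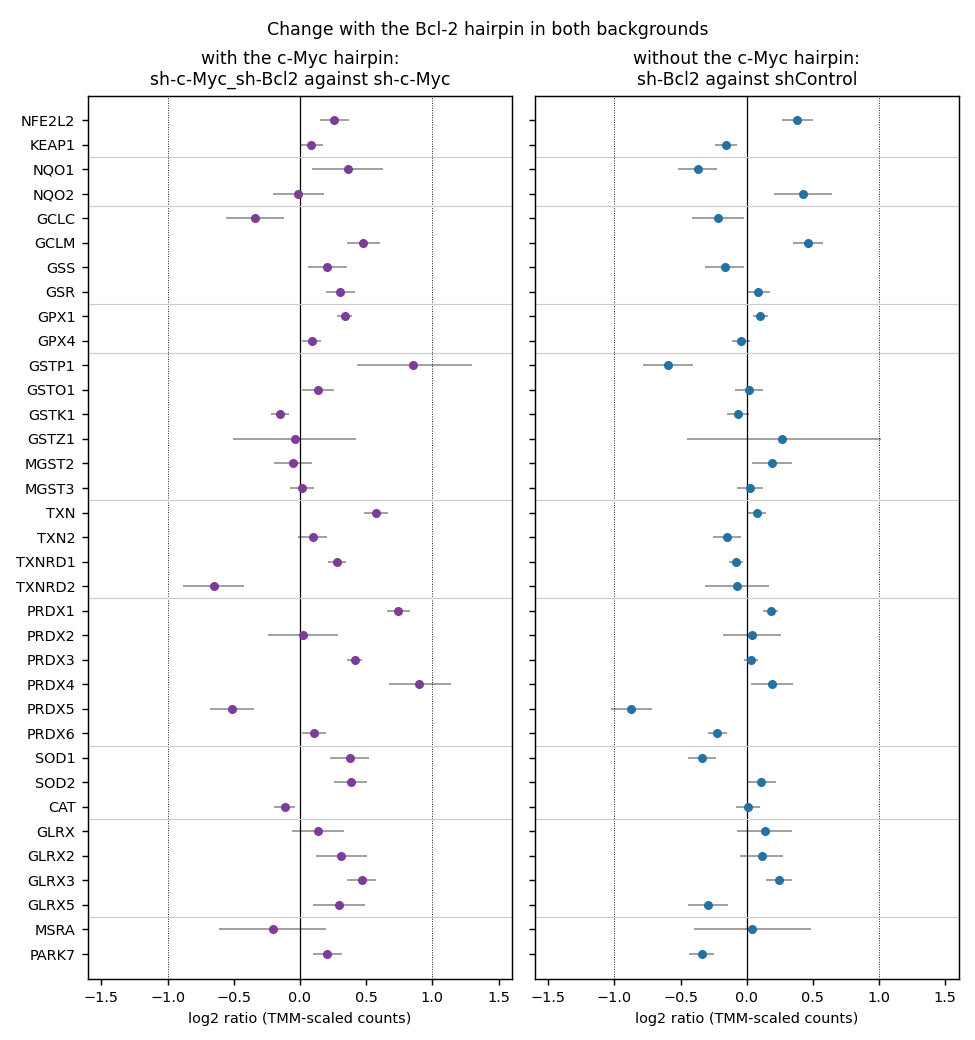
Log2 ratio of TMM-scaled counts with the Bcl-2 hairpin, in cells that also carry the c-Myc hairpin (left) and in cells that do not (right), for the 35 members with 95% intervals for counting error. Dotted lines mark 2-fold, which no member reached. On the left 26 points lie above 0 and on the right 20, and GSTP1 lies at 0.85 on the left and -0.59 on the right.

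The departure from additivity is the change with the Bcl-2 hairpin in the c-Myc hairpin background minus the change without it, on the log2 scale. GSTP1 was the 1 member past 2-fold, at 1.45 [0.99 to 1.90], where 3.04% of all genes departed upward and 5.73% downward. The median of the members was 0.22 against 0.05 over all genes, and the interval lay above 0 for 20 members and below 0 for 4. The share of all genes with such intervals is not given. By sign alone, 24 members lay above 0 and 11 below, where 45.38% of all genes lay below 0. With 1 library in each cell of the layout, the departure cannot be told apart from the spread between libraries. In the double knockdown against sh-Bcl2, which gives the c-Myc hairpin in cells that also carry the Bcl-2 hairpin, GSTP1 and NQO1 were lower, 2 of 35 (5.714%, background 3.63%), and 0 were higher (background 5.21%). The median there was -0.25 against -0.01 over all genes.

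Other genes of these pathways were read from lists that do not overlap the members. Of 22 measured further genes listed as NRF2 targets, 5 were lower and 1 higher in sh-c-Myc, 0 lower and 1 higher in sh-Bcl2, and 7 lower and 0 higher in the double knockdown. Of all genes, 9.86% were lower and 12.5% higher in sh-c-Myc, 2.16% and 2.45% in sh-Bcl2, and 5.99% and 7.1% in the double knockdown, and the counts of the 4 lists here are to be read beside these shares. TRIM16L was 6.51-fold lower in sh-c-Myc [4.16 to 11.1], PIR 3.78-fold [2.97 to 4.91], OSGIN1 4.105-fold [2.35 to 7.998] and ME1, the cytosolic malic enzyme that makes NADPH, 2.56-fold [2.13 to 3.10]. TXNIP, whose protein binds and inhibits thioredoxin, was the higher one (3.88-fold [3.69 to 4.08]). It had 506.5 CPM in sh-c-Myc, 146 in sh-Bcl2 and 237 in the double knockdown, against 130.5 in shControl. HMOX1, haem oxygenase 1, was the one higher in sh-Bcl2 (2.38-fold [1.98 to 2.89]), and had 6.99 CPM in sh-c-Myc, 26.6 in sh-Bcl2 and 4.61 in the double knockdown, against 11.1 in shControl. So the gene was highest in sh-Bcl2 and lowest in the double knockdown. The double knockdown was 5.75-fold lower in HMOX1 than sh-Bcl2 was. Against shControl, the double knockdown was 5.10-fold lower in TRIM16L, 2.98-fold in ME1, 2.77-fold in PIR and 2.18-fold in SESN2, a sestrin gene.

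Of 11 further regulators of NRF2, 1 was called in sh-c-Myc and the double knockdown (9.86% and 5.99% of all genes were lower there), PGAM5, a mitochondrial phosphatase that binds KEAP1, at 2.93-fold lower in sh-c-Myc [2.70 to 3.19] and 2.08-fold lower in the double knockdown [1.94 to 2.24]. Of 21 measured further glutathione genes, 3 were lower and 2 higher in sh-c-Myc, 1 lower and 0 higher in sh-Bcl2, and 4 lower and 1 higher in the double knockdown, beside the shares of all genes given for the NRF2 targets. The glutathione-degrading enzyme gene CHAC1 had 15.1 CPM in sh-c-Myc, 6.74 in sh-Bcl2 and 1.98 in the double knockdown, against 14.3 in shControl, and was thus low where the Bcl-2 hairpin was present. It was 2.11-fold lower in sh-Bcl2 [1.66 to 2.71] and 7.10-fold lower in the double knockdown [4.91 to 10.9]. SLC3A2, the heavy chain of the cystine transporter, was 2.39-fold lower in the double knockdown [2.28 to 2.51]. The mitochondrial glutathione carrier SLC25A39 was 2.415-fold lower in sh-c-Myc [2.22 to 2.63] and 2.26-fold lower in the double knockdown [2.08 to 2.45]. GGCT, which acts in the gamma-glutamyl cycle, was lower in sh-c-Myc and the double knockdown (3.54-fold and 2.17-fold), and CHAC2, which degrades glutathione, in sh-c-Myc (3.31-fold). GGT5, of the gamma-glutamyltransferase family, was higher in both (13.6-fold [7.06 to 33.9] and 10.8-fold [5.56 to 27.1]) from 8 counts in shControl, and GSTM2 was higher in sh-c-Myc (2.48-fold [1.54 to 4.24]). Of 23 measured genes of the thioredoxin fold and of repair, 0 were called in sh-c-Myc, where 9.86% of all genes were lower and 12.5% higher. In sh-Bcl2 TXNDC5 was higher (2.28-fold [1.22 to 4.68]) and MSRB2, a methionine sulfoxide reductase of mitochondria, lower (2.08-fold [1.25 to 3.64]), and in the double knockdown SESN3 was higher (2.31-fold [1.84 to 2.92]). TXNDC5 rests on 35 counts in sh-Bcl2 and 14 in shControl, and MSRB2 on 23 and 45. Exons of BLOC1S5-TXNDC5 on the same strand share 60.59% of the exonic bases of TXNDC5, so its call is uncertain. The medians of the 4 lists in sh-c-Myc were -0.36 for targets, -0.40 for regulators, -0.19 for glutathione genes and 0.05 for the thioredoxin fold, against -0.02 over all genes.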

How the data were processed

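RNA-seq libraries of 4 MOLM-13 groups, 1 each, were compared. Per the submitters' processing notes, reads were aligned to GRCh38 with HISAT2 and counted with HTSeq 0.13.5; no source used here names the annotation release or strand setting. The deposited counts are raw counts per gene. The deposited FPKM are those counts scaled to gene length and library size: dividing one by the other gave gene lengths whole to within 0.01 base for 100% of values. Per the labels, 1.5 µg of RNA went into each NEBNext Ultra library.

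Counts were scaled with TMM (edgeR 4.0.16, R 4.3.3). Log2 ratios add 0.5 counts and carry 95% intervals from the exact conditional binomial, for counting error only; 1 library per group allows no test between groups. The departure from additivity has a delta-method interval. The fit with 1 term per hairpin used glmQLFit and glmQLFTest on the 12855 genes that reached 1 CPM in 2 or more libraries (common dispersion 0.02205). DESeq2 1.42.0, limma 3.58.1, other scalings, filters, thresholds, log2(FPKM + 1) ratios and removal of a GC and length trend were alternatives. The log2 ratios with their binomial intervals and the edgeR fit were tested on simulated counts, and the alternatives and the departure interval were not. Positions and overlaps come from GENCODE 29, in which all 24940 identifiers were found, and promoters from RefSeq.

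The members, the lists and the rule for named genes were chosen with earlier results of these data known. Values in all libraries are given for members called in any comparison, for NFE2L2 and KEAP1 and for the highest gene of each role in shControl; of other pathway genes, up to 4 per direction and list are named, by the end of the interval nearest to 1. GCLM, GCLC, TXNRD2, NQO2, PRDX3, SOD2, CAT, TXNIP, HMOX1 and CHAC1 values were added after they were seen.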

Additional observations from a re-analysis of the deposited data

Results flagged for a closer look

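In 8 members the library with the Bcl-2 hairpin lay above its partner where the c-Myc hairpin was present (double knockdown against sh-c-Myc) and below it where it was absent (sh-Bcl2 against shControl), with both counting-error intervals excluding 0. The share of all genes that meet this rule is not given, so the 8 are not to be read as particular to this set. The difference between these 2 changes was 1.45 on the log2 scale for GSTP1, 0.73 for NQO1, 0.71 for SOD1, 0.59 for GLRX5, 0.55 for PARK7, 0.37 for GSS, 0.36 for TXNRD1 and 0.33 for PRDX6. For GSTP1 the changes were 0.85 [0.43 to 1.30] and -0.59 [-0.79 to -0.40], and for SOD1 0.37 [0.23 to 0.52] and -0.34 [-0.44 to -0.23]. With 1 library in each group the difference was not tested, and it cannot be told apart from the spread between libraries. Total counts in place of TMM shift every change in the c-Myc hairpin background by -0.10. On that scale both intervals lay on opposite sides of 0 for 3 of the 8, GSTP1, SOD1 and TXNRD1, and no longer did so for the other 5, NQO1, GLRX5, PARK7, GSS and PRDX6. With DESeq2 size factors all 8 kept this pattern.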

How the results depend on the processing

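No called value changed sign under any alternative that was run. At 1.5-fold in place of 2-fold, members called numbered 16 in sh-c-Myc against shControl (9 at 2-fold), 2 in sh-Bcl2 against shControl (0), 13 in the double knockdown against shControl (5), 4 against sh-c-Myc (0), 9 against sh-Bcl2 (2) and 5 for the departure (1). The share of all genes called is not given for this or the other alternatives, so their counts have no background beside them. With log2(FPKM + 1) ratios, 5 were called for sh-c-Myc and 2 for the double knockdown against shControl; the added 1 FPKM understates low genes such as GSTZ1. In the double knockdown against shControl 3 were called with total counts, and 3 with the GC and length trend removed, where SOD1 and PRDX5 fell short of 2-fold. Removing that trend gave 1 call in the double knockdown set against sh-c-Myc. Total counts removed TXN, GLRX5 and TXNRD1 from the calls in sh-c-Myc (6 called), and removing the GC and length trend took out TXNRD1. In the fit, 10 members passed for the c-Myc hairpin with DESeq2, without GLRX2, GCLM, GSTZ1, GLRX3, SOD2, PARK7, CAT and PRDX2, against 18 with edgeR and 18 with limma-voom; for the Bcl-2 hairpin 1 member, PRDX5, passed with total counts and 0 with edgeR and TMM. Where not stated, the cause was not tested. The other counts stayed within 1.5 times.

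Log2 ratios leaned with GC content over all genes in the comparisons with the Bcl-2 hairpin (Spearman -0.28 in sh-Bcl2 against shControl, -0.25 in the double knockdown set against sh-c-Myc) and to a like degree over the members (-0.28 and -0.23, n = 35), as a description. No paired analysis was possible because the groups share fewer than 2 replicate numbers, with 1 library each. For the same reason no replicate could be left out, since leaving out a library leaves the fit no residual degree of freedom. SRXN1 and the second SOD2 row have few counts and share 84.95% and 90.5% of their exonic bases with other genes, so depth and overlap cannot be told apart there. The intervals and 1 library per group limit the other values.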
